A study of Rattus norvegicus with 180 samples.

Results

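Spleen was compared with lymph nodes of the same male Sprague-Dawley rats by 1-color miRNA microarray, over all miRNAs of the array. The rats were 10 weeks old, carried no genetic change named in the labels, and had been perfused with saline before the organs were taken. From each of rats 4, 5 and 6 came 1 array of spleen, 1 of cervical lymph node and 1 of mesenteric lymph node, which gives 9 of the 180 arrays of the atlas (3 per organ). Every spleen and node array came from a perfused rat. The arrays measured whole organs, in which fewer cells of a type and less RNA per cell cannot be told apart.

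Spleen and lymph nodes are secondary lymphoid organs that hold B and T lymphocytes. The spleen also has a red pulp, where macrophages clear aged erythrocytes, and in rodents it is a site of blood formation, whereas lymph nodes filter lymph. Among miRNAs, miR-451 and miR-144 come from a single locus that is strongly active in erythroid cells, miR-223 is characteristic of granulocytes and their precursors, miR-150 and miR-342 are abundant in mature lymphocytes, and miR-143 and miR-145 mark smooth muscle and fibroblasts. A mature miRNA recognizes its targets mainly through the seed, which is bases 2 to 8 from its 5′ end.

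The erythroid, myeloid, smooth muscle and HOX cluster miRNAs on which the results below turn are shown with their RefSeq sequences (assembly GRCr8, 5′ to 3′, seed in capitals). The erythroid locus on chromosome 10 gives the first 3, miR-223 is the myeloid one, miR-143 and miR-145 are the smooth muscle pair, and miR-10a-5p and miR-10b are close relatives from 2 HOX clusters.
miR-451: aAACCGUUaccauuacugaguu
miR-144: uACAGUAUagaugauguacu
miR-144*: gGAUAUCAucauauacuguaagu
miR-223: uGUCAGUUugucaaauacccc
miR-143: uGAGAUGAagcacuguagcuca
miR-145: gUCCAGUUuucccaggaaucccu
miR-10a-5p: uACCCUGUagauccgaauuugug
miR-10b: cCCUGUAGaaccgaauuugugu
These 8 miRNAs hold 8 different seeds. Mir144 (chr10:63459397-63459479, plus strand) and Mir451a (chr10:63459569-63459640, plus strand) lie between the genes Flot2 and Eral1 with 89 bases between their hairpins, and neither overlaps another annotated gene. The hairpins are printed below with the measured mature miRNAs in capitals, since miR-144 was measured from both arms and miR-451 runs from its stem into the loop.
Mir144: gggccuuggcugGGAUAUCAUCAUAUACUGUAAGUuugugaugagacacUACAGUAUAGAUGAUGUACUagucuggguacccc
Mir451a: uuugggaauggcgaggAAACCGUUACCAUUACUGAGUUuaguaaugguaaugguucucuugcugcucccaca
Mir143 (chr18:57371349-57371453) and Mir145 (chr18:57369983-57370070) lie on the minus strand, 1278 bases apart, within the noncoding gene Carmn. Mir223 (chrX:65151383-65151492) overlaps the uncharacterized gene LOC120099372 between Msn and Vsig4.

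The array measures 717 miRNAs. Detection means that the scanner software put more than 50% of a miRNA's spots well above background. By that rule 243 miRNAs were seen on 1 or more of the 9 arrays, and 153 were seen in all 3 rats for at least 1 organ. Only these 153 were tested. Signals were scaled to the same 75th percentile on every array, and any signal lower than 10.8 was raised to this floor, so values at the floor have no order. Between 141 and 193 miRNAs were detected per array and 0 spots were saturated. Log2 signals of the 153 miRNAs had a mean correlation of 0.989 to 0.992 for a spleen array with the other spleen arrays, and of 0.900 to 0.936 for a node array with the spleen arrays.

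The cervical node array of rat 4 and the mesenteric node array of rat 5 stood apart. On them 13 and 23 miRNAs were over 2 times as high as on any other of the 9 arrays, and 0 were on the other 7. Of these, 2 and 4 were tested and none was called. On the cervical array, of a list of 21 epithelial and glandular miRNAs, 12 were detected, against 1 on each of the other arrays, and their summed signal was 5949 against 243 to 261. miR-200a was at 1304, miR-200b at 1263, miR-429 at 489 and miR-375 at 292 on this array, and all 4 were at the floor on the other 8. miR-200c_v15.0, the single tested member, was at 1501 there and at 26.3 to 41.1 elsewhere. Its difference between spleen and nodes did not pass the test (adjusted p = 0.270), although it was called lower with arrays scaled by the 75th percentile over all miRNAs and without the mesenteric node of rat 5. On that mesenteric array miR-129-1* was at 122 and let-7b* at 68.1, both at the floor elsewhere, and miR-3085 was at 192 against 17.9 to 38.5 (all 3 named after their values were seen). Of 13 muscle miRNAs 2 were detected there, and 2 as well on the spleen array of rat 4. The summed signal of the 13 was 213 on the mesenteric array, against at most 149 on the other arrays. Lists of pancreatic acinar and of neural miRNAs were at 0 detected members on all 9 arrays. The part of other tissue in the results was not tested. For spleen against both nodes, counts of calls that change without either array are also given without it. No such count is given for the comparison of the nodes with each other.

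**Figure D1:**
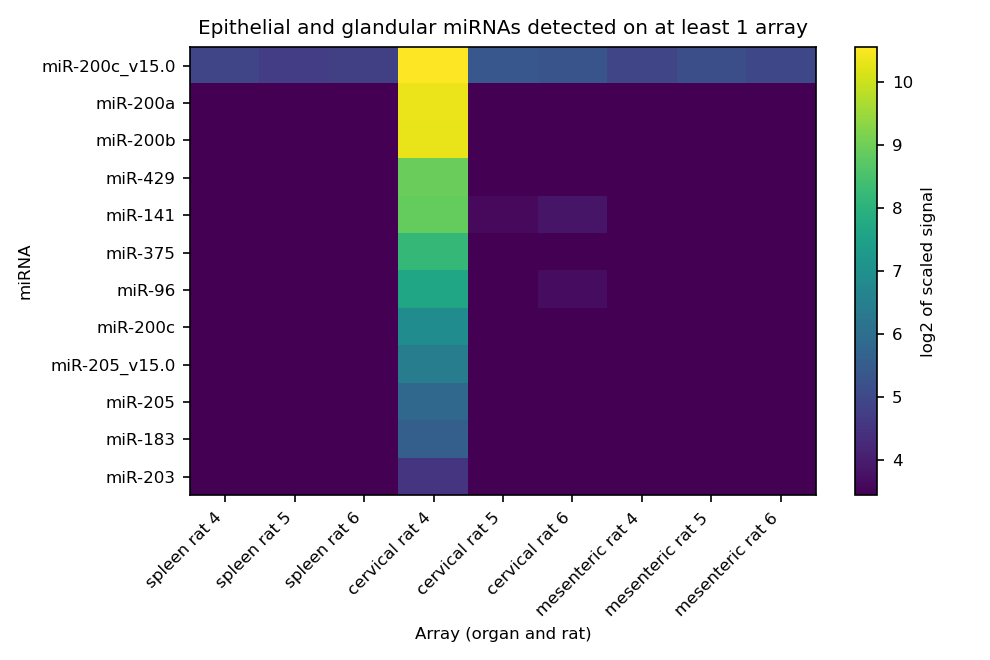
Log2 of scaled signal (color) of the 12 epithelial and glandular miRNAs detected on at least 1 array (rows) on the 9 arrays (columns, organ and rat). The cervical node of rat 4 carries all 12, while miR-200c_v15.0 alone was detected on the other 8 arrays.

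The comparison asked which miRNAs separate spleen from lymph nodes. Each spleen was set against the mean of both nodes of its own rat. At an adjusted p under 0.05 (limma with rat as a block), 20 of 153 miRNAs were higher in spleen (13.1%) and 10 were lower (6.54%). Of these, 9 were higher by over 1 log2 unit and 2 were lower by over 1. The median difference over all 153 was -0.07 on the log2 scale. The 3 spleen arrays lay above all 6 node arrays for 20 miRNAs (13.1%) and below all of them for 9 (5.88%), and 16 of the 20 and 6 of the 9 were also called. Without the cervical node of rat 4 all 30 calls remained and 11 more were made, 25 higher and 16 lower in all. Without the mesenteric node of rat 5, where limma gave all miRNAs the same SE of 0.24, 19 were higher and 8 lower, with 25 of the 30 calls among them. Without the spleen of rat 4, 15 were higher and 16 lower (24 of the 30 calls remained). The counts fell further without the spleen of rat 5, to 11 higher and 2 lower (13 of the 30 calls remained). They were 15 and 2 without the spleen of rat 6, and 12 and 2 without all arrays of rat 6 (14 remained). With the authors' normalized values they were 9 and 1. Against each node on its own, 14 of the 20 remained higher in both comparisons, but only 1 of the 10, miR-10b, remained lower in both.

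**Figure D2:**
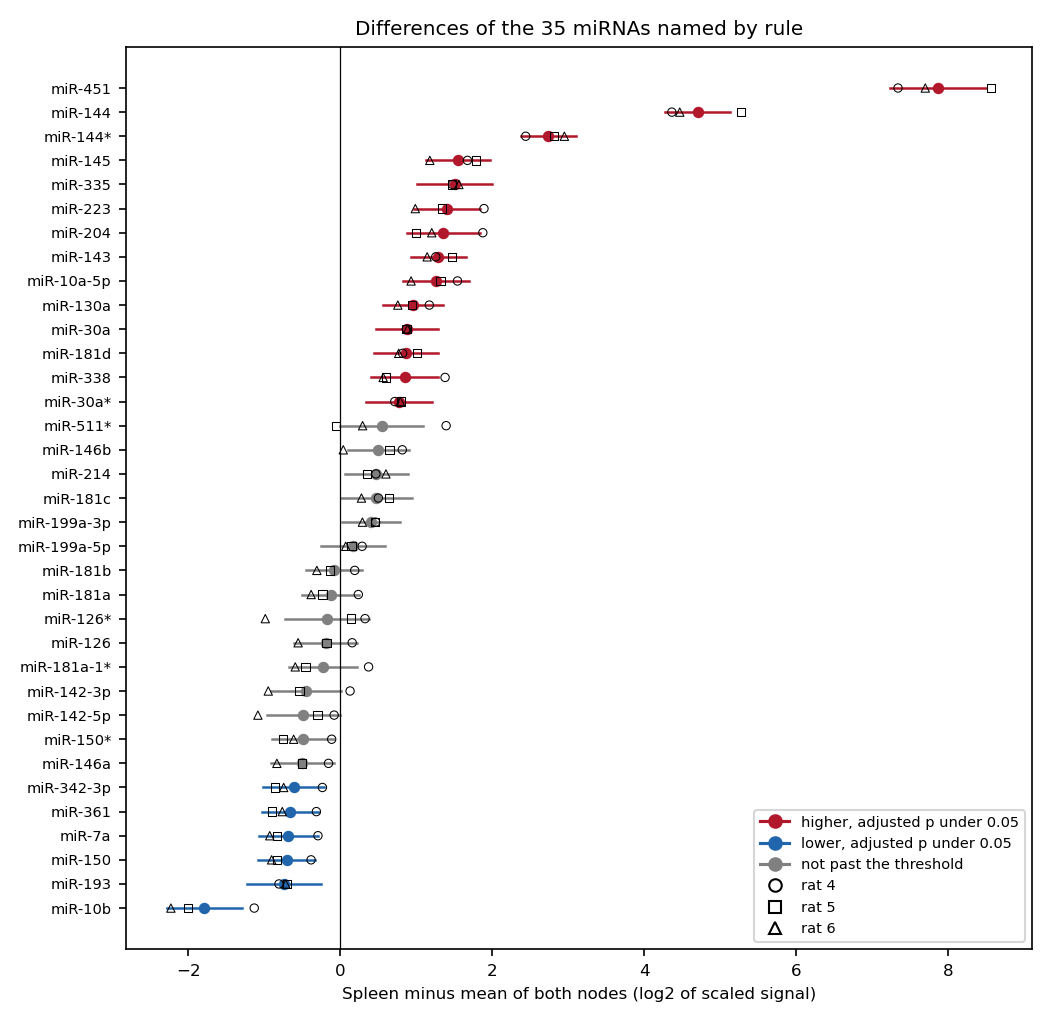
Difference of spleen from the mean of both nodes (log2 of scaled signal) for the 35 miRNAs named by rule. Filled points are the fitted differences with 95% confidence intervals and open symbols are the 3 rats. Red (higher) and blue (lower) passed an adjusted p of 0.05. miR-451 lies at 7.86 and miR-10b at -1.79, and the other blue miRNAs lie between -0.74 and -0.61.

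The erythroid list, which has 4 members, rose in spleen in all 3 of its tested members, against 13.1% of all 153. Of these, miR-144 and miR-144* were tested only because all 3 spleens detected them, so they could not have been called lower. The share of the list is therefore partly set by the filter, and no conclusion is drawn from the tests of miR-144 and miR-144*. miR-451 was at 4413, 7351 and 5231 in the spleens of rats 4, 5 and 6. In the same order it was at 28.9, 28.0 and 19.4 in the cervical nodes and at 25.7, 13.6 and 32.8 in the mesenteric nodes. It was detected on all 9 arrays, and the lowest spleen lay far above the highest node. The means were 5665 ± 1517 (SD, n = 3) in spleen, 25.4 ± 5.27 in cervical and 24.0 ± 9.73 in mesenteric node. Spleen exceeded the nodes by 7.86 ± 0.29 (SE) on the log2 scale, a 233-fold difference (adjusted p = 3.14e-09). The size depends on the processing, since it was 5.99 with normexp background correction and 7.00 with a floor 4 times as high. The nodes did not differ detectably from each other in miR-451 (0.15 ± 0.33, adjusted p = 0.861). An exact permutation of the organ labels within each rat over 27 arrangements gave a two-sided p of 0.037 for miR-451 and for miR-150. This is the smallest p that the design allows. The same p came out for miR-144, but all its node values were at the floor, and no conclusion is drawn from it.

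miR-144, cut from the hairpin next to that of miR-451, was at 223, 418 and 239 in spleen and was not well above background on any of the 6 node arrays. Spleen was at least 26.9-fold higher, with the nodes taken at the lowest detected signal of their arrays. Its other arm, miR-144*, was at 58.8, 76.1 and 83.6 in spleen and was also undetected in all nodes. For miR-144* spleen was at least 6.89-fold higher. No other miRNA was detected in all 3 spleens and in none of the 6 nodes. The other arm of miR-451, miR-451*, was detected on none of the 9 arrays. In rat 5, which had the highest spleen level of miR-451, the spleen level of miR-144 was highest as well, while miR-144* was highest in rat 6. How much blood each organ kept after perfusion was not measured here, and its part in these levels was not tested.

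**Figure D3:**
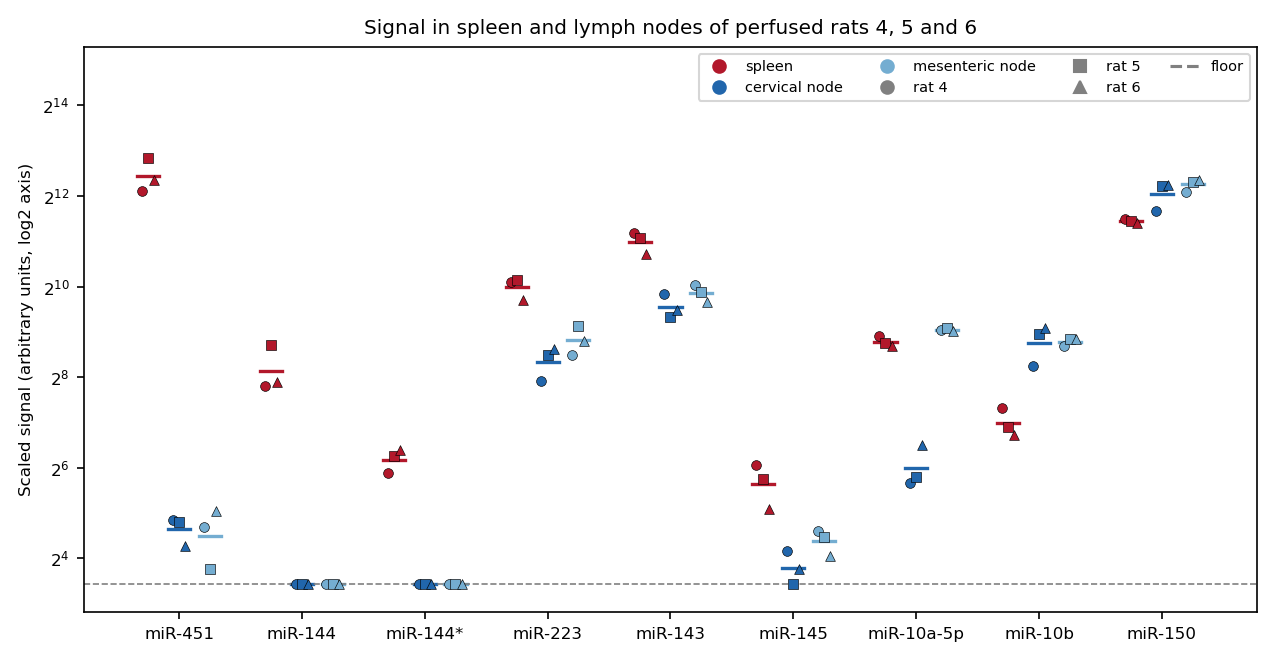
Scaled signal (log2 axis, arbitrary units) of 9 miRNAs on each of the 9 arrays, with the organ as color and the rat as symbol. Bars are means of log2 values and the dashed line is the floor of 10.8. Spleen and nodes do not overlap for miR-451, miR-144, miR-144*, miR-223, miR-143, miR-145, miR-10b and miR-150, while for miR-10a-5p spleen overlaps neither node but lies between them.

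Across the 55 organs of the perfused rats, spleen ranked 2nd in miR-451, miR-144 and miR-223, each time after bone marrow. Bone marrow was at 25687 ± 6332 (SD, n = 3) in miR-451, at 1625 ± 1154 in miR-144 and at 2473 ± 1056 in miR-223. miR-451 was at 40.9 ± 18.1 in thymus, where 2 of 3 arrays detected it, and the nodes ranked 33rd (cervical) and 34th (mesenteric). miR-144 was detected on all 3 arrays of 3 organs. For miR-144*, spleen ranked 1st at 72.8 ± 12.7 and bone marrow 2nd at 43.5 ± 17.2, but only 1 of the 3 marrow arrays detected it, and the gap was not tested.

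Of the 7 miRNAs of the myeloid and macrophage list, 3 were tested and 1 rose, against 13.1% of all 153. With arrays scaled by the 75th percentile over all miRNAs 3 rose, against 28 of all 153. The list median was 0.54, against -0.07 over all 153. miR-223 was at 1094, 1139 and 832 in spleen, at 241, 360 and 395 in cervical node and at 362, 564 and 446 in mesenteric node. All spleens lay above all nodes. The difference was 1.41 ± 0.20 on the log2 scale, or 2.65-fold (adjusted p = 3.51e-04), and it held against the cervical (1.64) and the mesenteric node (1.17) alone. miR-146b, an inflammation-related miRNA, differed by 0.50 (adjusted p = 0.0813) and miR-511*, from the gene of the macrophage mannose receptor, by 0.54 (adjusted p = 0.164). For miR-511* spleen was higher in rats 4 and 6 (1.39 and 0.29) and at -0.05 in rat 5, and it was called without the mesenteric node of rat 5 (adjusted p = 0.0279).

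Of the 8 miRNAs of the stromal and smooth muscle list, 5 were tested, and miR-143 and miR-145 rose, against 13.1% of all 153. With arrays scaled by the 75th percentile over all miRNAs 3 rose, against 28 of all 153. The list median was 0.47. miR-143 was at 2338, 2153 and 1683 in spleen, at 917, 639 and 720 in cervical node and at 1045, 949 and 805 in mesenteric node. The groups did not overlap, and the difference was 1.29 ± 0.16, or 2.44-fold (adjusted p = 1.94e-04). miR-145, cut from the neighboring hairpin, was at 67.0, 53.6 and 34.0 in spleen and between 10.8 and 24.4 in the nodes, where it was detected on 4 of 6 arrays. Its difference was 1.55 ± 0.19 (adjusted p = 1.89e-04), but 0.26 with normexp background correction and 0.31 with a floor 4 times as high, and not called in either. Bone marrow (845 ± 281) and thymus (768 ± 125) were near the nodes in miR-143, and spleen was at 2058 ± 338. The fibroblast-associated miR-199a-3p (0.40), miR-199a-5p (0.17) and miR-214 (0.47) did not pass the test (lowest adjusted p 0.106), although for miR-214 all spleens lay above all nodes. The endothelial miRNAs miR-126 and miR-126* did not pass either, at -0.19 and -0.17 (both above 0 with arrays scaled over all miRNAs), and the 95% interval of miR-126 ran from -0.61 to 0.22.

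Of the 10 miRNAs of the HOX cluster list 2 were tested, and 1 was called in each direction. Of all 153, 13.1% were called higher and 6.54% lower. miR-10a lies between Hoxb5os and Hoxb4 (chr10:81779709-81779818), and miR-10b lies within the span of Hoxd4 (chr3:80035859-80035967), in clusters of homeobox genes that mark position along the body axis. Aligned with an offset of 2 bases, the mature miRNAs share 20 of 21 bases and differ by U12A, where the position is counted from the 5′ end of miR-10a-5p and its base comes first. How far the probes of either take up the other was not tested. As RefSeq annotates their 5′ ends, their seeds differ.

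miR-10b was at 161, 119 and 106 in spleen, at 302, 494 and 539 in cervical node and at 411, 457 and 457 in mesenteric node. Every spleen lay below every node, and both nodes were at the same mean level, 445 ± 126 and 442 ± 26.3. The difference was -1.79 ± 0.22 on the log2 scale, with nodes 3.45-fold above spleen (adjusted p = 1.89e-04). Bone marrow (159 ± 12.0) and thymus (112 ± 22.1) were close to spleen in miR-10b.

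miR-10a-5p instead separated the nodes from each other. It was at 479, 431 and 414 in spleen, at 51.0, 55.2 and 91.2 in cervical node and at 530, 541 and 516 in mesenteric node. Spleen and mesenteric node were near each other and cervical node lay far below both. Against the mean of both nodes spleen was higher by 1.26 ± 0.20 (adjusted p = 7.96e-04). That value is made of 2.79 against the cervical node (adjusted p = 3.01e-06) and -0.26 against the mesenteric node (adjusted p = 0.442), and the cervical node was below the mesenteric one by 3.06 (adjusted p = 4.08e-06). Thymus (75.1 ± 15.4) was near the cervical node and bone marrow (270 ± 20.3) lay between.

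**Figure D4:**
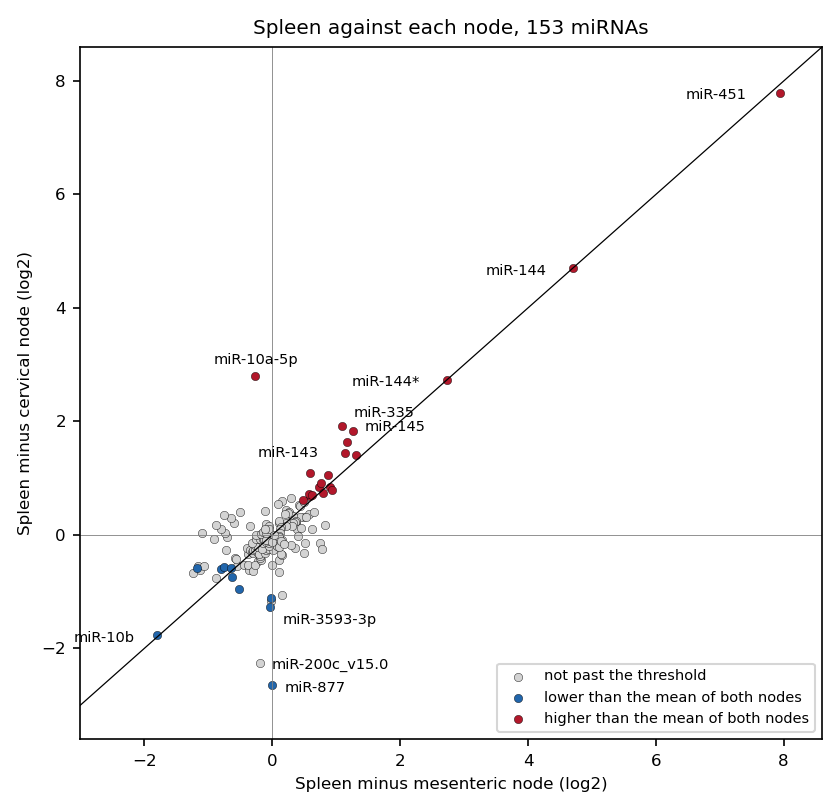
Log2 difference of spleen from the cervical node (y axis) against that from the mesenteric node (x axis) for the 153 tested miRNAs. The diagonal marks equal differences, red and blue the 30 calls against the mean of both nodes. miR-451, miR-144, miR-144* and miR-10b lie at the diagonal, miR-10a-5p and miR-877 lie far from it.

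Between the cervical and the mesenteric node 8 of 153 miRNAs (5.23%) differed. Besides miR-10a-5p they were miR-877, miR-3593-3p, miR-211*, miR-3584-5p, miR-290, miR-18a and miR-1224, all 7 higher in the cervical node. Other than miR-10a-5p and miR-18a they fall outside the rule for naming and were chosen after their values were seen. Of them, miR-877, miR-3593-3p and miR-211* were also among the 10 called lower in spleen. miR-877, which lies in Abcf1 on chromosome 20, was at 50.4, 77.2 and 81.2 in cervical node and at the floor on all 3 spleen and all 3 mesenteric arrays. The cervical node lay 2.65 above that floor on the log2 scale, so its exact distance from either organ is not known. Spleen and mesenteric node, both at the floor, could not be compared. The call against both nodes (-1.33, adjusted p = 2.69e-04) therefore rests on the cervical one. With the other organs at the floor, miR-877 could only have come out lower in spleen and higher in cervical node. No conclusion is drawn from its tests. miR-3593-3p and miR-211* were at or near the floor (10.8 to 12.2) in spleen and mesenteric node as well, and no conclusion is drawn from their calls either.

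The leukocyte list has 8 members, of which 6 were tested. All 6 were below 0 in spleen minus nodes, here and under each of the other 4 scalings except that miR-142-3p was at 0 with quantile normalization. The median was -0.49, against -0.07 over all 153. The test was passed by 2, against 6.54% of all 153. Under the other scalings it was passed by 0 to 6, while the number lower among all 153 ran from 1 to 33. miR-150 was at 2879, 2784 and 2700 in spleen, at 3245, 4794 and 4857 in cervical node and at 4348, 5104 and 5244 in mesenteric node. No spleen reached the lowest node, which was the cervical node of rat 4. The difference was -0.71 ± 0.17 (adjusted p = 0.0134), with nodes 1.63-fold above spleen, at -0.38, -0.83 and -0.90 in rats 4, 5 and 6. It was the list's largest difference and was past the threshold against the mesenteric (-0.81, adjusted p = 0.0190) but not the cervical node (-0.60, adjusted p = 0.0559). With arrays scaled by the 75th percentile over all miRNAs, the difference was -0.42 (adjusted p = 0.276), while the median of all 153 moved to 0.22. Relative to that median miR-150 was at -0.64 under both scalings. The scalings differ by 1 factor per array, which moves miR-150 and the median alike, so this equality is no support for the difference.

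miR-342-3p, which lies within Evl on chromosome 6, was at 753, 686 and 711 in spleen, at 775, 1284 and 1227 in cervical node and at 1012, 1198 and 1156 in mesenteric node. It differed by -0.61 ± 0.18 (adjusted p = 0.0329), a call that held in 13 of 30 alternatives and against neither node alone (adjusted p = 0.0833 and 0.0664). Without the mesenteric node of rat 5 it was lost (adjusted p = 0.0543). miR-142-3p (-0.45), miR-142-5p (-0.49), miR-146a (-0.50) and miR-150* (-0.49) had adjusted p of 0.167, 0.158, 0.0934 and 0.0881. Without the cervical node of rat 4, 4 of the 6 were called, miR-146a and miR-150* in addition. In that setting 16 of all 153 were called lower. The 3 lymphoid organs held the top ranks of the 55 organs in miR-150: mesenteric node 1st at 4899 ± 482, cervical node 2nd at 4299 ± 913 and spleen 3rd at 2787 ± 89.6, followed by thymus at 1080 ± 204. In miR-342-3p thymus (830 ± 70.6) ranked 3rd and spleen (717 ± 34.0) 4th.

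**Figure D5:**
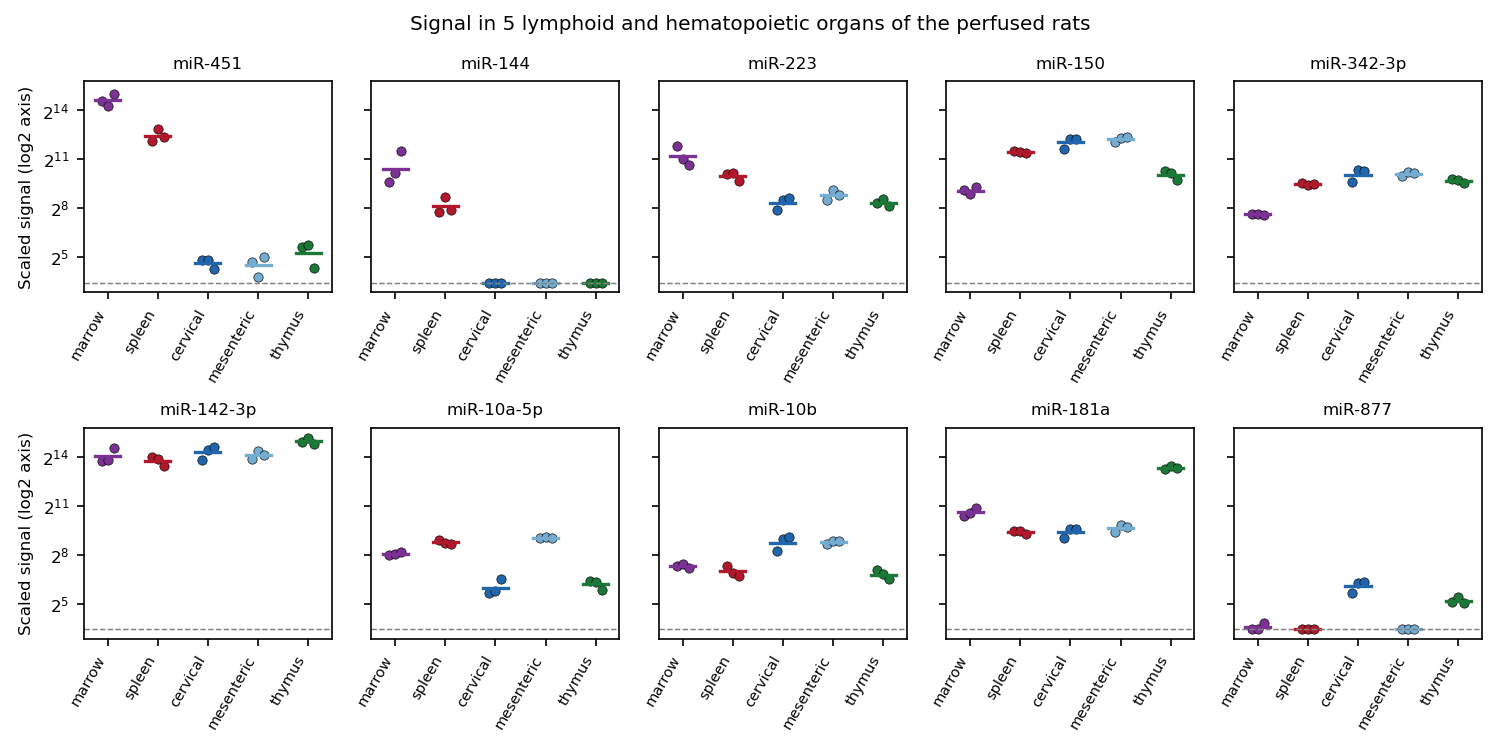
Scaled signal (log2 axis) of 10 miRNAs in bone marrow, spleen, cervical node, mesenteric node and thymus of the perfused rats. Points are the 3 arrays of an organ, bars the means of log2 values and the dashed line the floor. Spleen lies nearest to bone marrow in miR-451 and miR-144, between bone marrow and the nodes in miR-223, and next to the nodes in miR-150.

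The miR-181 family, known for its part in thymocyte maturation, gave 1 call among 5 tested members, a share near the 13.1% of all miRNAs called higher. There were 2 calls with arrays scaled over all miRNAs or by quantiles, against 28 and 15 of all 153. With the authors' normalized values there were 0, against 9 of all 153. miR-181d was at 26.2, 24.2 and 18.6 in spleen and between 10.8 and 18.9 in the nodes, detected on 3 of 6. It differed by 0.87 ± 0.19 (adjusted p = 0.00787), but by -0.14 with normexp, and the call held in 21 of 29 alternatives. Thymus was at 10408 ± 764 in miR-181a, against 675 ± 58.9 in spleen. Between spleen and nodes miR-181a, miR-181b, miR-181c and miR-181a-1* stood at -0.13, -0.08, 0.47 and -0.23 (lowest adjusted p 0.158). Of the 12 tested members of the miR-17-92 and related clusters, which are tied to proliferation, 0 passed limma's test and 0 had an unadjusted p under 0.05. Of all 153, 13.1% were called higher, 6.54% lower, and 46 had an unadjusted p under 0.05. The median of the 12 was -0.12 (0.17 with arrays scaled over all miRNAs) and their range -0.36 to 0.30. With the percentile taken over miRNAs detected on all 9 arrays 2 were called lower, and without the cervical node of rat 4 miR-92a was (-0.45, adjusted p = 0.0376). Of all 153, 33 and 16 were called lower in these 2 settings. Against the mesenteric node alone miR-18a was called higher (0.75, adjusted p = 0.0377), while against the cervical node alone it was at -0.15.

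Further miRNAs rose in spleen. miR-335 was at 79.5, 74.5 and 50.9 in spleen, at 17.1 to 18.5 in cervical node and at 47.6, 38.9 and 17.1 in mesenteric node. It differed by 1.50 ± 0.22 (adjusted p = 5.87e-04), but by 0.34 with normexp and by 0.61 with a floor 4 times as high, and was not called in either. miR-204, which lies within Trpm3, was at 301, 233 and 245 in spleen and at 69.2 to 133 in the nodes, a difference of 1.36 ± 0.22 (adjusted p = 9.37e-04). Its level in bone marrow was at the floor on all 3 arrays. miR-130a (844, 734 and 676 in spleen, 311 to 451 in the nodes) differed by 0.96 ± 0.18 (adjusted p = 0.00277). miR-338, which overlaps Aatk, was at 165, 102 and 77.5 in spleen and at 48.5 to 90.1 in the nodes, so that the groups overlapped. It differed by 0.85 ± 0.20 (adjusted p = 0.0118), a call that held in 22 of 30 alternatives.

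Within the miR-30 family, both arms of the miR-30a hairpin rose and no other of the 8 tested members did (13.1% of all 153 rose), whereas with the authors' normalized values neither arm passed. With the percentile over miRNAs detected on all 9 arrays 1 member was called lower, against 33 of all 153. miR-30a was at 455, 348 and 358 in spleen, at 299, 161 and 201 in cervical node and at 208, 224 and 187 in mesenteric node, a difference of 0.88 ± 0.18 (adjusted p = 0.00725). miR-30a* differed by 0.77 ± 0.20 (adjusted p = 0.0174), but by -0.04 with normexp, and its call held in 20 of 30 alternatives. miR-30c and miR-30e have the seed of miR-30a and stood at -0.10 and -0.18. The sequences of both arms of miR-30a, again with the seed in capitals, show that they have different seeds.
miR-30a: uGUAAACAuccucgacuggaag
miR-30a*: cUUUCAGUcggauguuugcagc

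In the list of miR-99, miR-100 and miR-125, 3 of 6 tested members rose (2 without the mesenteric node of rat 5, 1 with quantile normalization, 0 with the authors' normalized values), against 13.1% of all 153, and the median was 0.46. miR-125b-5p was at 1319, 1101 and 1012 in spleen and at 516 to 828 in the nodes, without overlap, and differed by 0.79 ± 0.17 (adjusted p = 0.00787). miR-99a differed by 0.66 ± 0.19 (adjusted p = 0.0290), miR-99b by 0.55 ± 0.16 (adjusted p = 0.0305) and miR-100 by 0.38 (adjusted p = 0.165). In the let-7 family, 1 of 8 tested members rose (0 with quantile normalization, the authors' values or without the mesenteric node of rat 5), a share near the 13.1% of all miRNAs. The member was let-7e, higher by 0.63 ± 0.16 (adjusted p = 0.0150), at 447, 400 and 393 in spleen and at 249 to 318 in the nodes. Without the cervical node of rat 4, 3 of the 8 rose, with let-7b (0.40, adjusted p = 0.0455) and let-7c (0.47, adjusted p = 0.0239) in addition. In that setting 25 of all 153 rose. With quantile normalization, the authors' values or without the mesenteric node of rat 5, 15, 9 and 19 of all 153 rose. Mir99b, Mirlet7e and Mir125a follow each other on chromosome 1 within Spaca6, and miR-125a-5p stood at 0.33 (adjusted p = 0.174). The members of that cluster that passed the test are shown with miR-125b-5p, which has the seed of miR-125a-5p.
miR-99b: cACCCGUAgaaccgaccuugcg
let-7e: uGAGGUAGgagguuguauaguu
miR-125b-5p: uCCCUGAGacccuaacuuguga
miR-34a (0.84 ± 0.19, adjusted p = 0.00787) and miR-151 (0.64 ± 0.17, adjusted p = 0.0174), named here after their values were seen, complete the 20 miRNAs that were higher.

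Lower in spleen were also miR-193, miR-7a and miR-361. miR-7a was at 219, 203 and 183 in spleen, at 262, 401 and 366 in cervical node and at 275, 326 and 332 in mesenteric node, a difference of -0.68 ± 0.18 (adjusted p = 0.0174). miR-361, which lies in Chm on the X chromosome, was at 130, 121 and 97.9 in spleen and at 146 to 238 in the nodes, a difference of -0.66 ± 0.17 (adjusted p = 0.0174). miR-193 was at 34.9, 29.9 and 26.7 in spleen and at 39.0 to 95.5 in the nodes, where the highest was the cervical node of rat 4. Its difference of -0.74 ± 0.22 (adjusted p = 0.0349, or 0.0545 with no block for rat) was -0.57 without that array and -0.52 against the mesenteric node alone (adjusted p = 0.184). The calls held in 19 (miR-7a), 21 (miR-361) and 12 (miR-193) of 30 alternatives. miR-455*, named here after its values were seen, differed from the mean of both nodes by -0.88 (adjusted p = 0.00787), from the mesenteric node by -1.17 (adjusted p = 0.00526) and from the cervical node by -0.58 (adjusted p = 0.102), with overlap between spleen and cervical node.

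Other families held 0 calls by limma, against 13.1% of all 153 called higher and 6.54% called lower. With so few members tested per family, 0 calls cannot be told from those shares. Among their members 1, miR-15b, had an unadjusted p under 0.05 (-0.55, adjusted p = 0.0549), against 46 of all 153. Without the cervical node of rat 4 miR-15b was called lower (-0.66, adjusted p = 0.0122), 1 of 16 among all 153. With the percentile over miRNAs detected on all 9 arrays, 2 members of the miR-29 family and 2 of the miR-15 and miR-16 family were called lower, and with quantile normalization 1 of the miR-29 family. Of all 153, 33 and 7 were called lower under these 2 scalings. The 4 tested members of the miR-29 family had a median of -0.29, the 4 of the miR-15 and miR-16 family a median of 0.02, and the 5 of miR-23, miR-24 and miR-27 a median of 0.29. Of 92 miRNAs of the Dlk1-Dio3 cluster, 10 were detected on some array and 2 were tested, with 0 calls. Of the X-linked list from miR-322 to miR-450a, 1 of 11 was tested (miR-322, 0.32, adjusted p = 0.211). miR-221 (0.28) and miR-192 (-0.13) did not pass.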

How the data were processed

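Labeled RNA of each organ was hybridized by the authors to a customized Agilent rat miRNA array, and the scanner output of Feature Extraction 10.7.3 was deposited, in which each spot has a background-corrected signal intensity. The authors also deposited a table of normalized signal intensities, used here as an alternative. Outlier spots were left out, spots were averaged per probe sequence and then per miRNA, and each array was brought to a common 75th percentile of 2118, computed on the 37 miRNAs that all 180 arrays detected. Signals lower than 10.8 were raised to it before log2. Organs were compared with limma 3.58.1 in R 4.3.3 over 9 arrays with terms for organ and rat, adjusted by Benjamini-Hochberg over the 153 miRNAs tested. Arrays of one rat come from one animal and were scanned on 1 day, so scan day and rat are 1 block. The deviations of arrays of one rat from the organ means had a mean correlation of 0.24 (0.081 to 0.526 over 9 pairs), against -0.11 between rats. None of the slides held both a spleen and a node array, so slide and organ cannot be told apart within a slide. The fit was tested on simulated data. RefSeq sequences (GRCr8) were found for 27 of 30 names looked up. The miRNAs named were 3 markers (miR-451, miR-144 and miR-150), up to 12 called miRNAs with the largest differences in each direction that lay above or below both nodes in every rat, their other arms, members of 7 lists, and up to 4 members of other lists. The comparison, members and lists were chosen with earlier results of these data known. The number of arrays limits the precision. Python 3.11.15 drew the figures.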

Additional observations from a re-analysis of the deposited data

How the results depend on the processing

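The 30 alternatives changed the scaling, background, floor, filter, blocks, nodes and arrays. miR-451 was past the threshold and positive in all 30 (5.99 to 8.15), as was miR-143. So were miR-144 and miR-144* in the 29 that could test them. No node array detected either, so they could not have been called lower, and no conclusion is drawn from this. miR-223 and miR-204 were positive and miR-10b negative in all 30, each past the threshold in 29. The median of all tested miRNAs moved from -0.07 to -0.23 with the percentile taken over miRNAs detected on all 9 arrays and to 0.22 with it over all miRNAs, so calls near the threshold depend on the scaling. The count of miRNAs lower in spleen, 10, became 33 and 4 under these scalings, 43 with normexp (applied to median spot signals), 5 and 0 with a filter of at least 1 array and with no filter, 22 over all perfused arrays and 4 against the mesenteric node alone. With the authors' normalized values, 9 were higher and 1 lower, with a floor 4 times as high 13 and 3, and with no filter 4 higher and, at an unadjusted p under 0.05, 48 in either direction. miR-150 was not past the threshold with the percentile over all miRNAs (-0.42), with the authors' values (-0.83), with no filter (-0.71, adjusted p = 0.150) or against the cervical node alone (-0.60). Without the replicate block 22 were higher and 10 lower, and as a random block 21 and 9; of the miRNAs named by rule and called, miR-193 lost its call in both (adjusted p = 0.0545 and 0.0678). Leaving out a rat or an array gave 11 to 25 miRNAs higher and 2 to 29 lower, and miR-150 between -0.87 and -0.61, not past the threshold without rat 5, rat 6 or the spleen of either. The higher count was 11 without the spleen of rat 5, 13 without rat 5 and 12 without rat 6. The lower count was 29 without rat 4, 16 without its spleen or its cervical node, 6 without the cervical node of rat 6, 4 without rat 5 and 2 without rat 6 or without the spleen of rat 5 or of rat 6. miR-150*, not called in the main setting, was called at -0.66 with the percentile over miRNAs detected on all 9 arrays, at -0.46 with normexp and without rat 4, its spleen or its cervical node, and lay between -0.68 and -0.36 over the arrays left out. Over the same settings miR-451 lay between 7.52 and 8.13 and miR-144 between 4.41 and 4.87. With no node array detecting them, the fitted values of miR-144 and miR-144* followed the floor and background, from 2.38 (normexp) to 11.73 (the authors' values) and from 0.73 (a floor 4 times as high) to 9.77 (the authors' values). Among the named miRNAs that were called, the sign turned for miR-181d (-0.14) and miR-30a* (-0.039) with normexp. It also turned for miR-10a-5p (-0.26) against the mesenteric node alone. Some named miRNAs without a call changed sign too, such as miR-126 (-0.59 to 0.21). Over all alternatives, 828 values of the named miRNAs other than the 3 markers kept their side of the threshold. Of the rest, 97 lost their call with the same sign, 29 gained one, and 3 lost theirs with the sign turned. The cause of these changes was not tested.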
